A study of Rattus norvegicus with 15 samples.

Results

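The genes described here code for the subunits of potassium, calcium, sodium and chloride channels in the rat aorta. They were chosen by symbol, as every feature of the deposited value table named Kcn, Cacn, Scn, Clcn, Clic, Ano, Ryr or Itpr followed by the usual family letter or number. The rule found 63 of the 15739 features. All 63 names were current rat gene symbols in RefSeq. Other channels of the vessel wall, such as Kcnj2 and Cacna1g, were not analysed here.

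Aortas came from Sprague Dawley rats in 5 groups, each measured on 3 one-colour Agilent arrays. The sham group held untreated, age-matched rats. The other groups held rats made uremic by 5/6 nephrectomy (NX), the removal of most kidney tissue, and injected intraperitoneally 3 times a week for 12 days with vehicle (NX-vehicle), paricalcitol at 0.08 µg/kg (NX-paricalcitol), alfacalcidol at 0.04 µg/kg (NX-alfacalcidol) or VS-105 at 0.01 µg/kg (NX-VS-105). The 3 compounds are agonists of the vitamin D receptor. Sham rats therefore differed from every treated group in surgery and in injection, and each array held RNA pooled from 2 rats of a group, so the spread between arrays is that between pools. Doses differed between the compounds, so their values stand side by side and no pair of compounds was tested. Comparisons of the compounds with vehicle share the 3 NX-vehicle arrays, and those with sham share the 3 sham arrays.

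Ion channels set the membrane potential and calcium entry of vascular smooth muscle, and through them vessel tone. Opening of potassium channels hyperpolarises the cell and closes voltage-gated calcium channels. Opening of calcium-activated chloride channels depolarises it and favours contraction. Endothelial potassium channels hyperpolarise the endothelium, a signal that spreads to the muscle beneath it.

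Values are the authors' log2 signals, with array medians between 2.33 and 2.64. The array minima lay between -5.88 and -2.71. The highest of them, -2.71, was that of NX-alfacalcidol array 2, and the next was -3.08 on sham array 1. Values below -2.71 are thus below the lowest value of at least 1 array and may lie near the floor, which was not tested. Of the 63 channel genes, 5 were below -2.71 on at least 1 array and 0 on all 15, and 42 had a mean over the arrays of 0 or more. No difference of level between genes is drawn, since each gene has its own probe. The contractile smooth muscle list (7 of 8 genes in the table, Acta2 and Myh11 among them) averaged between 6.94 and 7.96 on every array, and endothelial genes (7 of 8) between 2.32 and 3.50.

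Some arrays stood apart in genes of other tissues. NX-VS-105 array 1 averaged 3.57 over 10 skeletal muscle genes, against -0.40 to 0.71 on the other 14 arrays. NX-vehicle arrays 2 and 3 averaged -0.04 and 3.06 over 9 intestinal epithelial genes, against -4.22 to -1.59 elsewhere. White adipocyte genes (7 of 8) ranged from 3.37 on NX-vehicle array 2 to 6.31 on NX-vehicle array 1, and brown adipocyte genes (5) from 2.34 to 5.83. Schwann cell genes (4 of 6) ranged from -1.21 to 1.96, neuronal and sympathetic nerve genes (4 of 8) from 1.99 to 3.68 and fibroblast genes (6) from 6.65 to 7.61. Macrophage genes (6) averaged 1.57 ± 0.24 (SD, n = 3) in sham and 1.50 ± 0.04 in NX-alfacalcidol, and 2.32 ± 0.30, 2.29 ± 0.15 and 2.30 ± 0.42 in NX-vehicle, NX-paricalcitol and NX-VS-105. In bulk RNA, fewer cells of a type and less RNA per cell cannot be told apart for any channel below. The part of these other cells in the channel results was not tested, except where values without an array are given.

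Which channels differed was asked with limma over all 15739 features in 7 comparisons, at a Benjamini-Hochberg adjusted p under 0.05. A total of 13 channel genes passed in at least 1 comparison and 50 in none. The matching total over all features was not counted, so this total is no result about channels as a group. Ano1, the calcium-activated chloride channel, rose in each compound group against sham. Kcng3, a modifier subunit of voltage-gated potassium channels, fell in NX-VS-105 against both vehicle and sham. Kcna5, a voltage-gated potassium channel of smooth muscle, rose and Kcnma1, the pore of the large-conductance calcium-activated potassium (BK) channel, fell in NX-VS-105 against sham.

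The counts of channel genes were close to those of the whole table. NX-vehicle against sham, groups that differed in both surgery and injection, had 0 calls among the channels and among all features (0% called, limma adjusted p). At an unadjusted p under 0.05, 4 channels (6.35%) stood beside 9.04% of all features. Paricalcitol against vehicle had 0 calls in either set (0% called by limma), with 10 channels (15.9%) beside 14.8% of features at an unadjusted p under 0.05. Alfacalcidol against vehicle had 0 channels (limma), while 0.0445% of features passed. At an unadjusted p under 0.05 these were 10 channels (15.9%) and 18.2% of features. VS-105 against vehicle had 2 channels, both lower, or 3.17% beside 4.55% of features, of which 2.15% were lower.

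More channels passed against sham, as did more features in general. Paricalcitol had 5, with 3 higher and 2 lower, or 7.94% of channels beside 6.98% of features, which split into 5.51% higher and 1.47% lower. Alfacalcidol had 2, Ano1 higher and Kcnk5 lower, or 3.17% beside 1.75% (1.17% higher and 0.578% lower). VS-105 had 11, or 17.5% beside 15.9%, of which 3 were higher and 8 lower. The counts ranged from 0 to 10 for paricalcitol, 0 to 5 for alfacalcidol and 2 to 13 for VS-105 when 1 of the 15 arrays was left out, and those over all 15739 features from 0 to 1482, 31 to 861 and 583 to 2778. Among all features the VS-105 calls split into 7.88% higher and 8.01% lower. The moderated F test over the 5 groups passed 4 channels (6.35%) and 6.16% of all features. These shares lay near the background in each comparison, so the counts are no result about channels as a group.

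Arrays of the groups compared did not overlap for 27 channels (42.9%) in VS-105 against sham, beside 36.9% of features. In the other comparisons the shares were 7 channels for NX-vehicle against sham (11.1%, beside 10.6%), 7 for paricalcitol (11.1%, beside 16.7%), 14 for alfacalcidol (22.2%, beside 23.5%) and 11 for VS-105 (17.5%, beside 24.1%) against vehicle, and 19 for paricalcitol (30.2%, beside 32.0%) and 18 for alfacalcidol (28.6%, beside 32.3%) against sham.

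The median channel change was small. On the log2 scale it was -0.11 for NX-vehicle against sham (-0.04 over all features). Against vehicle it was 0.05 for paricalcitol (0.15 over all features), 0.10 for alfacalcidol (0.20) and 0.10 for VS-105 (0.07). Against sham it was -0.16 (0.10), -0.11 (0.14) and -0.04 (0.06) in the same order. The median of all features was thus shifted by 0.10 or more in 4 comparisons, and subtracting array medians turned the sign of 12 channels in paricalcitol and 13 in alfacalcidol against vehicle, and of 1 to 5 in the others. No channel that passed was turned. The group with the highest mean was sham for 23 channels (36.5%), and for 20.6% of all features. The group with the lowest mean was NX-VS-105 for 20 channels (31.7%), beside 29.2% of features. In the heatmap of 58 channel genes the rows that differ by group are few.

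**Figure D1:**
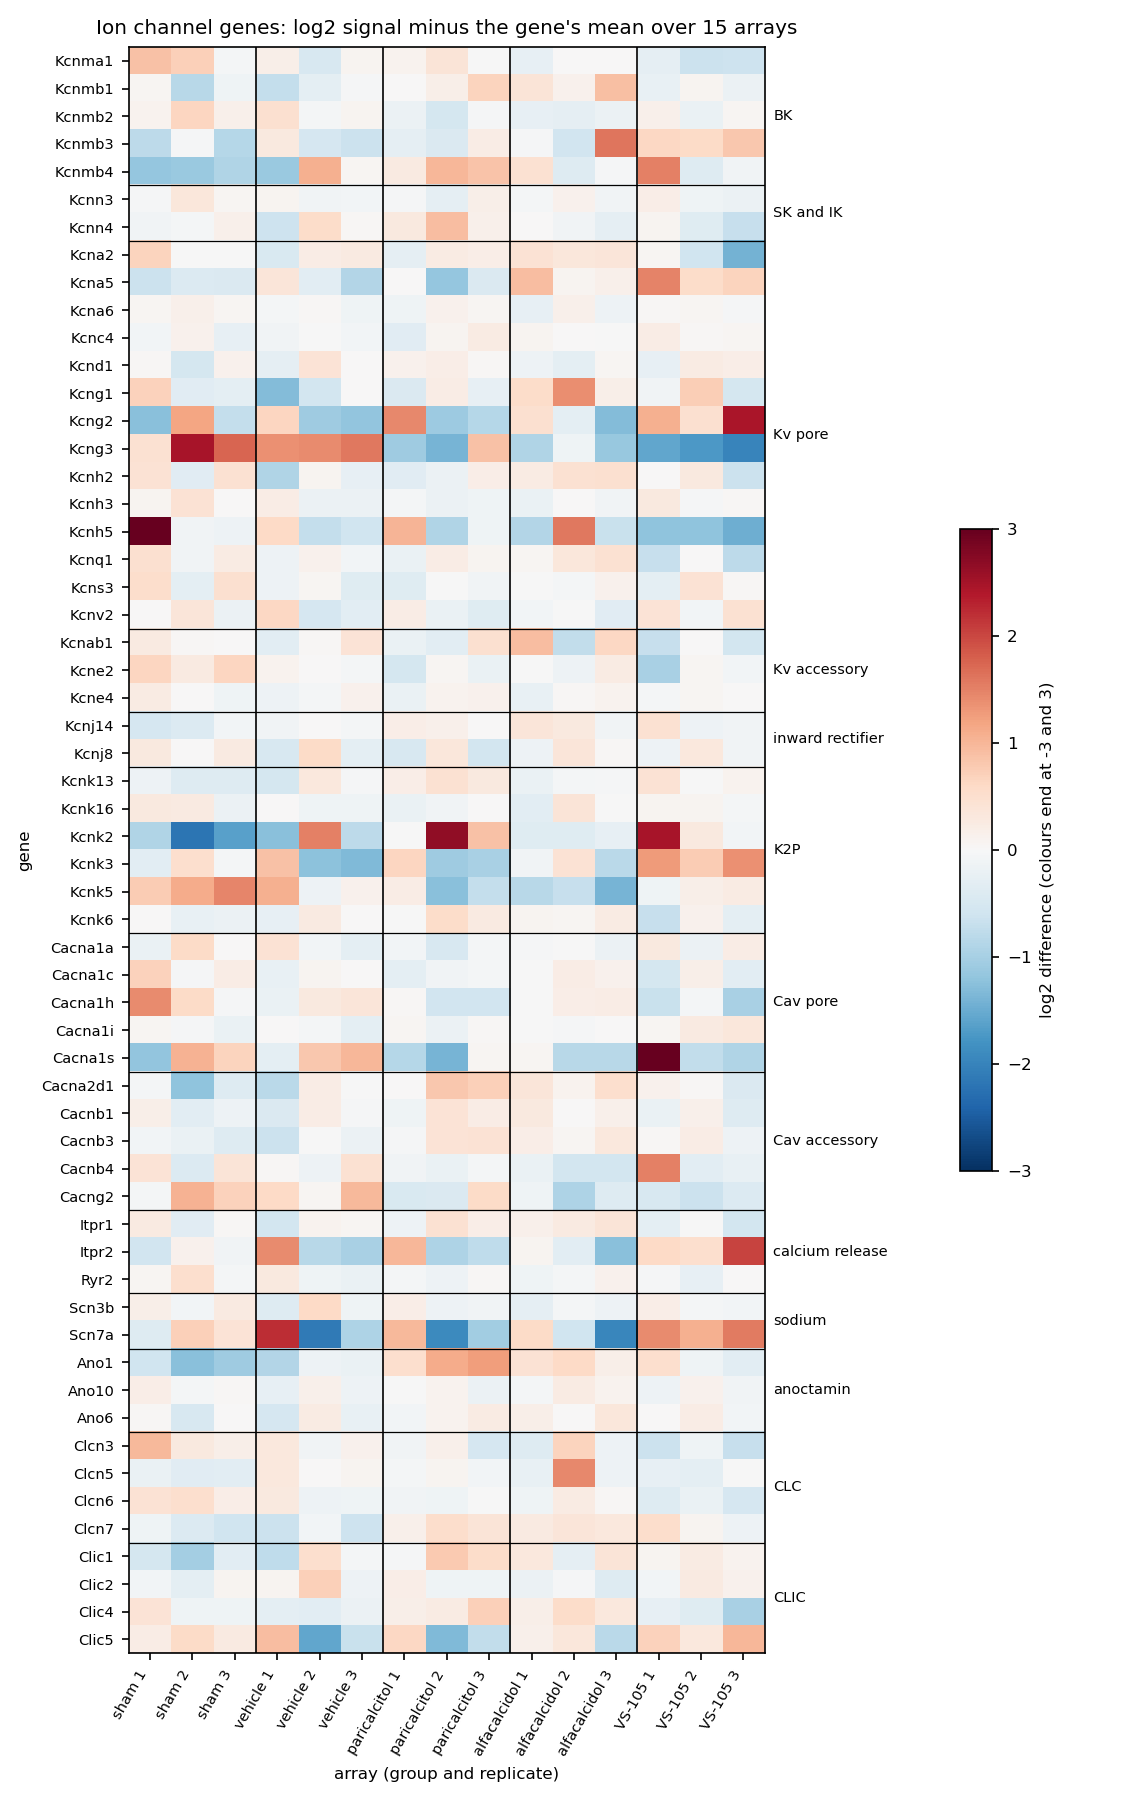
Log2 value of each of 58 channel genes (rows, grouped by channel family) on the 15 arrays (columns), minus the gene's mean over the arrays; the colour bar gives the scale. Most rows show no block of colour that follows a group. Kcng3 is above its mean on the 6 sham and NX-vehicle arrays and also on NX-paricalcitol array 3. Ano1 is above its mean on the 6 NX-paricalcitol and NX-alfacalcidol arrays and below it on the 3 sham arrays.

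The promoters of 4 channels the results turn on are shown, as the 250 bases before the annotated start in RefSeq (GRCr8), 5′ to 3′ on the gene's strand. Capitals mark the GC box GGGCGG or its reverse complement, the motif of Sp-family factors; overlapping matches run together.
Kcnma1, chr15:351675-351924, plus strand: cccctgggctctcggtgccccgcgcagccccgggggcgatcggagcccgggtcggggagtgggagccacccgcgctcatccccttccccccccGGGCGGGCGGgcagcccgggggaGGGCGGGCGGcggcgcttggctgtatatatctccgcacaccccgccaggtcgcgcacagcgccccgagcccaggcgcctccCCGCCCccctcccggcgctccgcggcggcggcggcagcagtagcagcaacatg
Kcna5, chr4:161043810-161044059, minus strand: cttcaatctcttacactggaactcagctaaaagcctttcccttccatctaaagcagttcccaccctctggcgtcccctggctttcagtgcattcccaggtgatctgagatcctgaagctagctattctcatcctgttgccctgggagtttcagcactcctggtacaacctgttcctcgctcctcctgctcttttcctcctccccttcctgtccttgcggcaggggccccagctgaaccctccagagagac
Kcng3, chr6:16803592-16803841, plus strand: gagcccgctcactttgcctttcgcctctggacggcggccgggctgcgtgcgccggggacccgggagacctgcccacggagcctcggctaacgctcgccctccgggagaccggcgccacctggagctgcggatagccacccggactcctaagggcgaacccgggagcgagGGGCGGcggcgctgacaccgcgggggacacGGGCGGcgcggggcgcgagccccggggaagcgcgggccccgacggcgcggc
Ano1, chr1:209329339-209329588, minus strand: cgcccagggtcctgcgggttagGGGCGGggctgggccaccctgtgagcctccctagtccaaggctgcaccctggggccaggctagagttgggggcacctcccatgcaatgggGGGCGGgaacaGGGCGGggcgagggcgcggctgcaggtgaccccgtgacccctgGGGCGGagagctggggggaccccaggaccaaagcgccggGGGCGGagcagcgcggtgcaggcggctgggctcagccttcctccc
Kcnma1 and Ano1 hold 5 GC boxes each and Kcng3 holds 2, while Kcna5 holds 0. The GC content of these windows was 79.6%, 74.8%, 78.4% and 54.8% for Kcnma1, Ano1, Kcng3 and Kcna5, beside a median of 51.2% over all 33469 windows. None of the 4 holds AGGTCA or AGTTCA, core sequences that nuclear receptors such as the vitamin D receptor recognise, on either strand. In the shares that follow, channels were counted as genes, while the background was counted as windows, 33469 windows from 27457 genes. The shares are therefore in unlike units, and no enrichment of a motif among channels was tested. A window was found for 42 of the 63 channels. Of these, 25 (59.5%) hold GGGCGG, beside 30.5% of all windows, 2 (Kcnc4 and Ryr2) hold AGGTCA, beside 14.1%, and 3 (Clcn3, Clic5 and Kcne4) hold AGTTCA, beside 12.2%. A pair of AGGTCA copies 3 bases apart was found in 0 of 42 and in 0.0209% of all windows. The E-box CACGTG was found in Ano6, Clcn6, Clcn7 and Kcne4 (4 of 42, beside 5.59%), and TATAAA in Cacna1s, Cacng2 and Clcn7 (3 of 42, beside 12.9%). All motifs were searched on both strands, and a match describes letters in this window only.

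The large-conductance (BK) channels, which open on calcium and depolarisation and oppose contraction, were represented by 5 genes. Kcnma1, the pore, had log2 values of 2.89, 2.72 and 1.94 in sham, 2.19, 1.53 and 2.10 in NX-vehicle, 2.11, 2.41 and 2.00 in NX-paricalcitol, 1.77, 2.02 and 2.02 in NX-alfacalcidol and 1.74, 1.36 and 1.40 in NX-VS-105. The 3 NX-VS-105 arrays were all below every sham array, and the other groups overlapped sham. The gene fell by 1.02 ± 0.24 (SE) on the log2 scale in NX-VS-105 against sham, or 2.03-fold (limma adjusted p = 0.0183). Its differences from sham were -0.58 in NX-vehicle (adjusted p = 0.533), -0.58 in NX-alfacalcidol (adjusted p = 0.149) and -0.35 in NX-paricalcitol (adjusted p = 0.357). Against vehicle the VS-105 difference was -0.44 (adjusted p = 0.299), so the fall was called only against sham rats. It did not pass without sham array 1 (adjusted p = 0.0682), sham array 2 (0.0574) or NX-VS-105 array 3 (0.0664). Nor did it pass when only the sham and NX-VS-105 arrays were fitted (limma adjusted p = 0.0694).

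The beta subunits that tune the BK pore gave no calls. Kcnmb1, the subunit of smooth muscle that raises calcium sensitivity, measured 2.90 ± 0.48 (SD, n = 3) in sham, 2.86 ± 0.34 in NX-vehicle, 3.48 ± 0.35 in NX-paricalcitol, 3.67 ± 0.40 in NX-alfacalcidol and 3.08 ± 0.16 in NX-VS-105. Its NX-alfacalcidol arrays lay above those of both sham and NX-vehicle, with differences of 0.78 (adjusted p = 0.108) and 0.82 (adjusted p = 0.213). Kcnmb4, a subunit best known from neurons, was -1.53, -1.49 and -1.28 in sham and -0.11, 0.62 and 0.48 in NX-paricalcitol, a difference of 1.76 ± 0.53 (adjusted p = 0.0599). Kcnmb2, an inactivating subunit, differed from sham by -0.54 in NX-paricalcitol (adjusted p = 0.0820) and -0.53 in NX-alfacalcidol (adjusted p = 0.106). Kcnmb3 differed by 1.24 in NX-VS-105 against sham (adjusted p = 0.0760), with values between -2.63 and -0.18 over all arrays.

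Kcnn3 and Kcnn4, calcium-activated potassium channels known from the endothelium, gave no calls. Kcnn3 ranged from 1.30 to 1.91 and Kcnn4 from -2.18 to -0.55 over the 15 arrays. The largest of their differences from sham were 0.45 for Kcnn4 in NX-paricalcitol (adjusted p = 0.312) and -0.17 for Kcnn3 in NX-paricalcitol (adjusted p = 0.485).

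**Figure D2:**
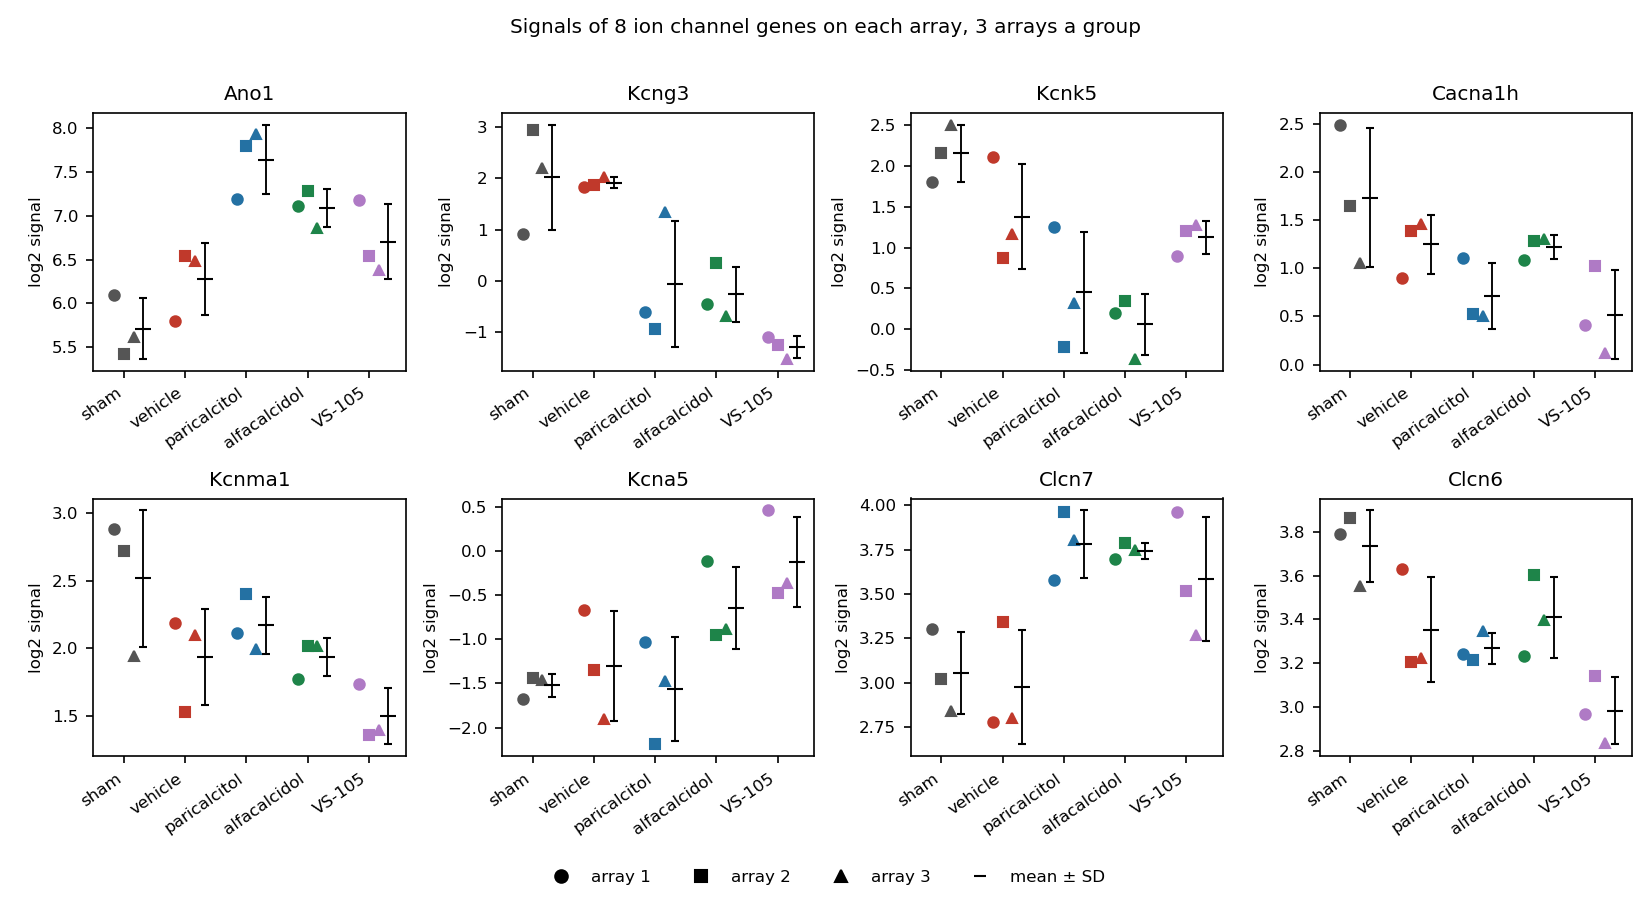
Log2 value of 8 channel genes on each array, by group; symbols are single arrays (pools of 2 rats), the dash beside them is the group mean and the whisker its SD (n = 3). Ano1 is above sham in each compound group, Kcng3 is lowest in NX-VS-105, Kcnma1 is lowest and Kcna5 highest in NX-VS-105.

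Voltage-gated potassium channel pores made up the largest family, with 17 genes. In NX-VS-105 against sham 4 passed (23.5%, beside 15.9% of all features), among them Kcna5, which rose, and Kcng3 and Kcnq1, which fell. The other 13 did not pass. In NX-paricalcitol against sham Kcng3 fell (5.88% of the family, beside 6.98% of features). In NX-alfacalcidol against sham 0 of 17 passed (limma), beside 1.75% of features. In NX-VS-105 against vehicle Kcng3 was among 2 that fell (11.8%, beside 4.55% of features that passed and 2.15% that were lower). These shares rest on 17 genes and were not tested.

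Kcna5 codes for a delayed rectifier that helps set the resting potential of arterial smooth muscle. Its values were -1.67, -1.43 and -1.46 in sham, -0.66, -1.35 and -1.91 in NX-vehicle, -1.03, -2.19 and -1.47 in NX-paricalcitol, -0.11, -0.95 and -0.89 in NX-alfacalcidol and 0.46, -0.47 and -0.37 in NX-VS-105. All NX-VS-105 arrays were above all sham and NX-vehicle arrays, and the NX-alfacalcidol arrays were above all sham arrays. Kcna5 rose by 1.40 ± 0.37 in NX-VS-105 against sham, or 2.63-fold (limma adjusted p = 0.0270). The difference from vehicle was 1.18 ± 0.37 (adjusted p = 0.0896), and that of NX-alfacalcidol from sham 0.87 (adjusted p = 0.156). In NX-paricalcitol the difference from sham was -0.04 (adjusted p = 0.952). The mean of Kcna5 over all arrays was -1.03, so a filter to features of mean 0 or more drops this gene. The highest value was on NX-VS-105 array 1, the array high in skeletal muscle genes. Without that array the difference was 1.10 and did not pass (adjusted p = 0.0863), nor did it pass without sham array 1 (0.0814), sham array 2 (0.0584) or NX-VS-105 array 3 (0.0628).

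Kcng3 codes for a silent subunit, which carries no current alone and joins other pore subunits. It showed the largest falls of the channels that passed. Its values were 0.91, 2.94 and 2.21 in sham, 1.83, 1.87 and 2.03 in NX-vehicle, -0.60, -0.93 and 1.34 in NX-paricalcitol, -0.45, 0.34 and -0.68 in NX-alfacalcidol and -1.10, -1.25 and -1.52 in NX-VS-105. NX-VS-105 lay below all other arrays, and only NX-paricalcitol array 3 of the compound arrays reached the range of sham. Kcng3 fell by 3.31 ± 0.56 in NX-VS-105 against sham, or 9.94-fold (limma adjusted p = 0.00657), and by 3.21 ± 0.56 against vehicle, or 9.22-fold (adjusted p = 0.0164). In NX-paricalcitol it was 4.24-fold lower than in sham (log2 difference -2.09 ± 0.56, adjusted p = 0.0463) with overlapping arrays. In NX-alfacalcidol the difference from sham was -2.29 (adjusted p = 0.0560) and that from vehicle -2.18 (adjusted p = 0.132), both with no overlap. Paricalcitol against vehicle gave -1.98 (adjusted p = 0.259), also with no overlap.

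The VS-105 call for Kcng3 against sham held with each of the 15 arrays left out (adjusted p from 0.00258 to 0.0303). Against vehicle it was lost without NX-vehicle array 3 (adjusted p = 0.0899) or NX-VS-105 array 3 (0.0609). Leaving out the 3 arrays high in genes of other tissues leaves NX-vehicle array 1 alone in its group, so that setting cannot decide the call. The paricalcitol call was lost without any of 10 of the 15 arrays, with an adjusted p of up to 0.196. NX-vehicle did not differ from sham in this gene beyond the spread (-0.11, adjusted p = 0.964).

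Kcng1 and Kcng2, silent subunits of the same kind, gave no calls. Kcng1 differed by 1.31 in NX-alfacalcidol against vehicle (adjusted p = 0.212) and Kcng2 by 1.87 in NX-VS-105 against vehicle (adjusted p = 0.205).

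Kcnq1, a slow delayed rectifier, was 4.98, 4.42 and 4.77 in sham and 3.83, 4.53 and 3.72 in NX-VS-105. The second array of NX-VS-105 lay within the sham range. It fell by 0.70 ± 0.22, or 1.62-fold (limma adjusted p = 0.0472), and the call was lost without any of 13 of the 15 arrays, with an adjusted p of up to 0.162. Kcna2, another channel of smooth muscle, was -0.09, -0.78 and -0.77 in sham and -0.71, -1.37 and -2.18 in NX-VS-105 (difference -0.87, adjusted p = 0.0842). Kcnh2, the rapid delayed rectifier of the heart, was higher on all NX-alfacalcidol arrays than on all NX-vehicle arrays (difference 0.74, adjusted p = 0.246). Kcnh5 ranged from -5.42 to -2.36 except for 0.86 on sham array 1. Kcna6, Kcnc4, Kcnd1, Kcnh3, Kcns3 and Kcnv2 gave no call, and the smallest adjusted p among them was 0.206, for a difference of -0.29 in Kcnh3 in NX-paricalcitol against sham.

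Of the 3 accessory subunits, Kcne2, which modifies Kcnq1 and Kcnh2 channels, passed in NX-VS-105 against sham (33.3%, beside 15.9% of all features). Its values were 2.31, 1.93 and 2.31 in sham and 0.70, 1.72 and 1.59 in NX-VS-105, with no overlap. It fell by 0.84 ± 0.24, or 1.79-fold (limma adjusted p = 0.0353). NX-VS-105 array 1 was the lowest of the 15, and without it the difference was -0.52 and did not pass (adjusted p = 0.0927). The call was also lost without sham array 1 (0.104), sham array 3 (0.0772) or NX-VS-105 array 3 (0.0614). NX-vehicle and the other 2 compound groups were also below all sham arrays, with differences of -0.50 (adjusted p = 0.558), -0.74 in NX-paricalcitol (0.0727) and -0.49 in NX-alfacalcidol (0.213). Kcnab1, a beta subunit of Kv channels, and Kcne4 had no call, with a largest difference from sham of -0.52 for Kcnab1 in NX-VS-105 (adjusted p = 0.349).

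The inward rectifiers gave no calls. Kcnj8, the pore of the vascular ATP-sensitive potassium channel, averaged 6.83 ± 0.15 in sham, 6.56 ± 0.56 in NX-vehicle, 6.41 ± 0.48 in NX-paricalcitol, 6.71 ± 0.26 in NX-alfacalcidol and 6.65 ± 0.26 in NX-VS-105. The largest difference was -0.42 in NX-paricalcitol against sham (adjusted p = 0.339). Abcc9, the sulfonylurea receptor that pairs with this pore, differed from sham by -0.44 in NX-vehicle (adjusted p = 0.555) and by -0.27 to -0.33 in the compound groups. Kcnj14 differed from sham by 0.51 in NX-alfacalcidol (adjusted p = 0.106).

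The leak potassium channels of the Kcnk family keep the resting potential negative, and 6 were measured. Kcnk5, a pH-sensitive member, fell in 2 comparisons. Its values were 1.80, 2.16 and 2.49 in sham, 2.10, 0.87 and 1.16 in NX-vehicle, 1.25, -0.21 and 0.33 in NX-paricalcitol, 0.20, 0.34 and -0.36 in NX-alfacalcidol and 0.90, 1.20 and 1.28 in NX-VS-105. Every compound array was below every sham array, while NX-vehicle overlapped sham. Kcnk5 fell by 2.09 ± 0.37 in NX-alfacalcidol against sham, or 4.25-fold (limma adjusted p = 0.0223), and by 1.69 ± 0.37 in NX-paricalcitol, or 3.24-fold (adjusted p = 0.0302). In NX-VS-105 the difference was -1.02 (adjusted p = 0.0781) and in NX-vehicle -0.77 (adjusted p = 0.558). Against vehicle the alfacalcidol difference was -1.32 (adjusted p = 0.171), with no overlap.

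Both Kcnk5 calls were lost without sham array 2 (adjusted p = 0.0894 for paricalcitol and 0.0875 for alfacalcidol) or sham array 3 (0.0530 and 0.0549). The paricalcitol call was also lost without NX-paricalcitol array 2 (0.144) or 3 (0.0856), and the alfacalcidol call without NX-alfacalcidol array 1 (0.0743) or 3 (0.0982).

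Kcnk2, a stretch-sensitive leak channel, had the largest difference from sham of any channel in the paricalcitol group and did not pass. It was -2.75, -4.03 and -3.47 in sham, -1.85, 0.81 and -0.96 in NX-paricalcitol and 0.63, -1.54 and -1.92 in NX-VS-105. These groups did not overlap sham, and the differences were 2.75 ± 0.82 (adjusted p = 0.0586) and 2.48 ± 0.82 (adjusted p = 0.0575). All sham values lay below -2.71, so these differences rest on values at the bottom of the scale.

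Kcnk3, an acid-sensitive leak channel of vascular muscle that brown adipocytes also express, was low on the arrays that were low in adipocyte genes. It was 3.92, 4.75 and 4.20 in sham, 5.13, 3.02 and 2.92 in NX-vehicle, 4.88, 3.19 and 3.27 in NX-paricalcitol, 4.15, 4.67 and 3.45 in NX-alfacalcidol and 5.53, 5.00 and 5.61 in NX-VS-105. The 5 arrays lowest in Kcnk3 were the 5 lowest in white adipocyte genes, NX-vehicle 2 and 3, NX-paricalcitol 2 and 3 and NX-alfacalcidol 3. The same 5 were also the lowest in brown adipocyte and in Schwann cell genes, and which cells go with Kcnk3 was not tested. The Kcnk3 differences, 1.69 ± 0.58 in NX-VS-105 against vehicle (adjusted p = 0.115) and 1.09 against sham (adjusted p = 0.206), did not pass. Kcnk6, a weak leak channel, Kcnk13 and Kcnk16 had no calls. The closest was Kcnk13, 0.63 higher in NX-paricalcitol than in sham (adjusted p = 0.0608).

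**Figure D3:**
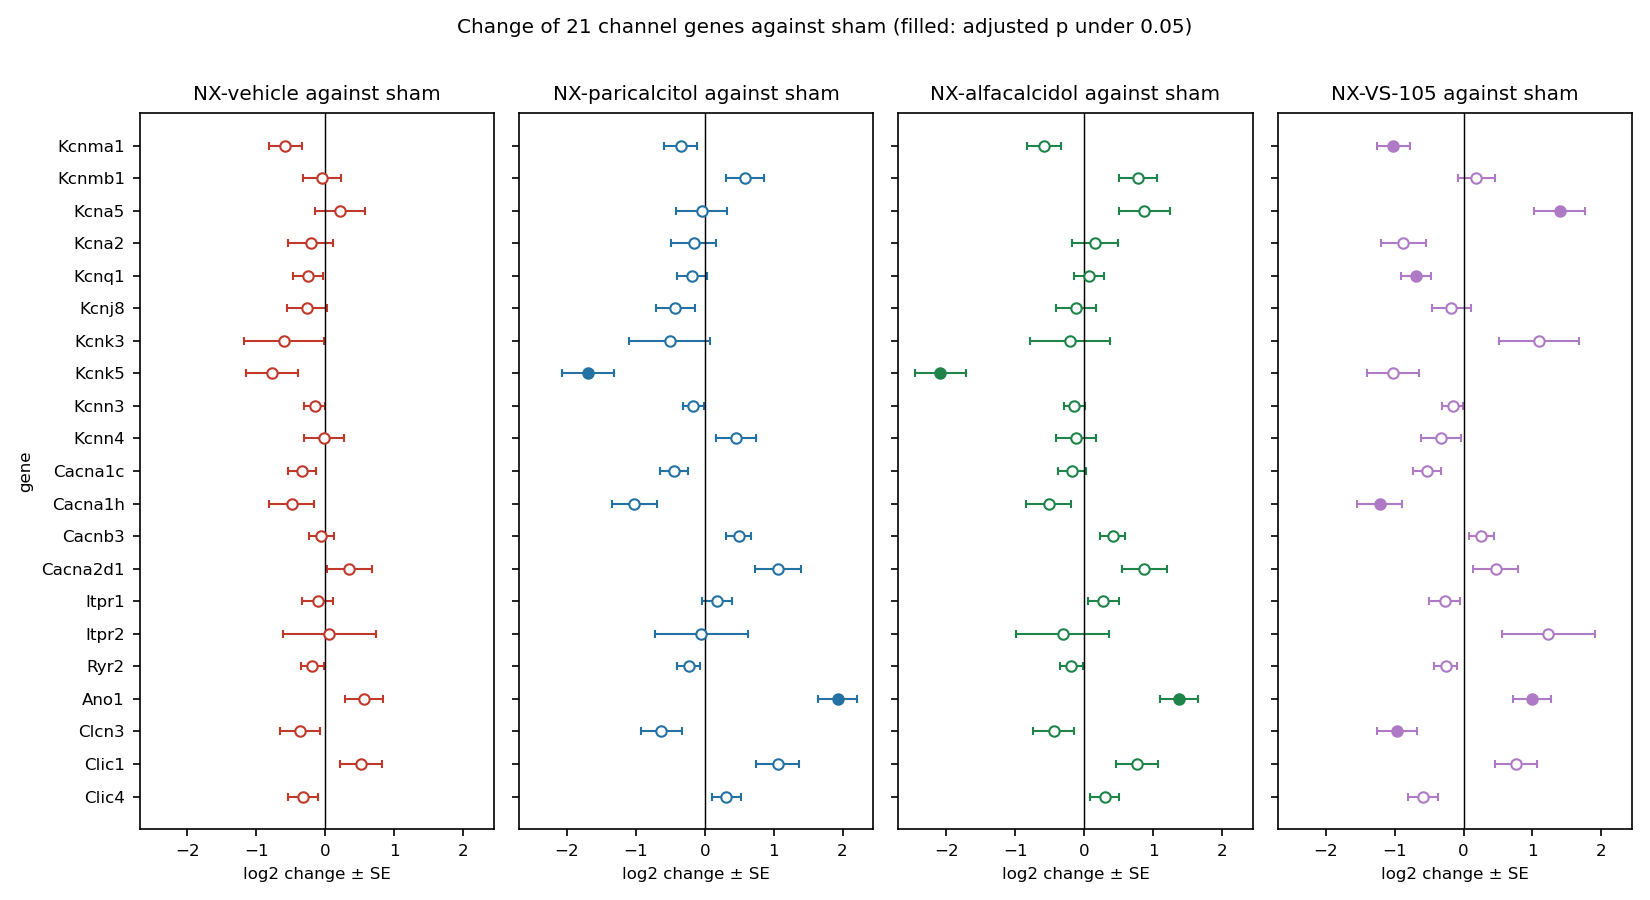
Log2 change against sham, with its SE from the fit, of 21 channel genes of the vessel wall in NX-vehicle, NX-paricalcitol, NX-alfacalcidol and NX-VS-105; filled points passed an adjusted p of 0.05 and open points did not. Filled points are at Ano1 in the 3 compound groups, at Kcnk5 in NX-paricalcitol and NX-alfacalcidol, and at Kcnma1, Kcna5, Kcnq1, Cacna1h and Clcn3 in NX-VS-105.

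Voltage-gated calcium channels carry the calcium that drives contraction, and 5 pores were in the table. Cacna1h, a T-type channel that opens near the resting potential, passed in 1 comparison. It was 2.50, 1.66 and 1.06 in sham, 0.90, 1.39 and 1.46 in NX-vehicle, 1.11, 0.53 and 0.51 in NX-paricalcitol, 1.08, 1.28 and 1.30 in NX-alfacalcidol and 0.42, 1.02 and 0.12 in NX-VS-105. The sham arrays spread widely, and the highest NX-VS-105 array was just below the lowest sham array. Cacna1h fell by 1.22 ± 0.33 against sham, or 2.33-fold (limma adjusted p = 0.0290). Without sham array 1 the difference was -0.84 and did not pass (adjusted p = 0.0972). It also did not pass without sham array 2 (0.0614), NX-VS-105 array 1 (0.0713) or NX-VS-105 array 3 (0.108). In NX-paricalcitol the difference was -1.02 (adjusted p = 0.0707).

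Cacna1c, the L-type pore on which arterial contraction depends, gave no call. It was 3.65, 2.91 and 3.16 in sham, 2.73, 3.02 and 2.95 in NX-vehicle, 2.66, 2.85 and 2.89 in NX-paricalcitol, 2.93, 3.17 and 3.08 in NX-alfacalcidol and 2.40, 3.12 and 2.62 in NX-VS-105. The NX-paricalcitol arrays alone lay below all sham arrays. Its differences from sham were -0.34 in NX-vehicle (adjusted p = 0.628), -0.44 in NX-paricalcitol (0.168), -0.18 in NX-alfacalcidol (0.609) and -0.52 in NX-VS-105 (0.0931). Cacna1i, a T-type channel known from neurons, was 5.53, 5.74 and 5.82 in NX-VS-105, above all vehicle arrays by a mean of 0.33 (adjusted p = 0.149). Cacna1a, the P/Q-type pore, had no difference larger in size than -0.33.

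The 5 accessory calcium channel genes had no calls. Cacna2d1, which brings the L-type channel to the membrane, was 4.93, 3.80 and 4.61 in sham and 5.00, 5.81 and 5.72 in NX-paricalcitol (difference 1.06 ± 0.33, adjusted p = 0.0647). Cacnb3, a cytoplasmic beta subunit of smooth muscle, differed by 0.49 in the same comparison (adjusted p = 0.0999) and by 0.55 in NX-paricalcitol against vehicle (adjusted p = 0.261). Cacng2, known from neurons, was -0.54, 0.55 and 0.21 in sham and -0.96, -1.13 and -0.90 in NX-VS-105, a difference of -1.07 ± 0.34 (adjusted p = 0.0515). Against vehicle the VS-105 difference of Cacng2 was -1.06 (adjusted p = 0.0982), again with no overlap.

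Cacna1s and Cacnb4 stood out on a single array. Cacna1s, the L-type pore of skeletal muscle, was 1.75 on NX-VS-105 array 1 and between -3.06 and -0.63 on the other 14. Cacnb4 was 0.79 on that array and between -1.28 and -0.27 elsewhere. Cacnb1, the beta subunit of skeletal muscle, was -0.28 there, inside its range of -0.51 to 0.34. In all, 7 channels were highest on NX-VS-105 array 1 (11.1%, beside 4.63% of all features), among them Cacna1s, Cacnb4, Clcn7, Kcna5, Kcnj14 and Kcnmb4. The arrays high in intestinal genes, NX-vehicle 2 and 3, were the 2 highest for 0 channels and for 0.496% of features.

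**Figure D4:**
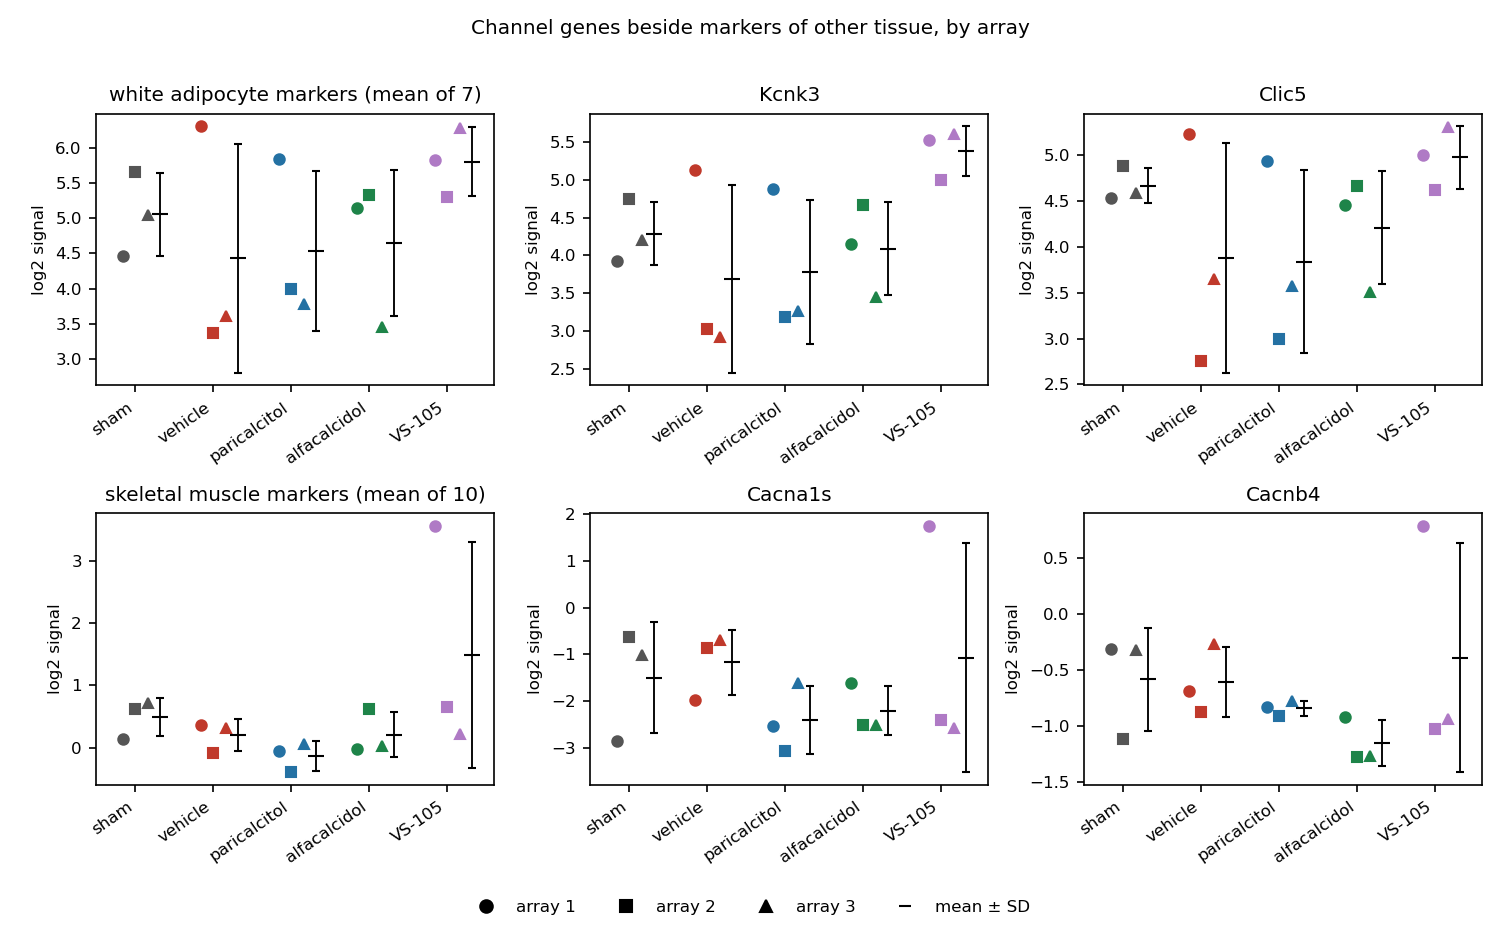
Log2 values by array of the mean of 7 white adipocyte genes with Kcnk3 and Clic5, and of the mean of 10 skeletal muscle genes with Cacna1s and Cacnb4. Kcnk3 and Clic5 are low on the 5 arrays that are low in the adipocyte genes, and Cacna1s and Cacnb4 are highest on NX-VS-105 array 1.

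Calcium release channels of the sarcoplasmic reticulum gave no calls. Itpr1, the inositol trisphosphate receptor of smooth muscle, ranged from 5.96 to 6.97, and its largest difference was 0.39 in NX-alfacalcidol against vehicle (adjusted p = 0.338). Ryr2, the ryanodine receptor whose calcium sparks activate BK channels, ranged from 1.88 to 2.63, with a largest difference of -0.26 (adjusted p = 0.290). Itpr2 ranged from -1.06 to 2.22 and was lowest on the same 5 arrays as the adipocyte and Schwann cell genes. Its difference of 1.23 in NX-VS-105 against sham did not pass (adjusted p = 0.216).

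Of the sodium channel genes, Scn3b ranged from 1.49 to 2.47 with no call. Scn7a, an atypical sodium channel of glia and sensory neurons, ranged from -2.93 to 1.41. It was lowest on the 5 arrays that were lowest both in adipocyte and in Schwann cell genes.

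Anoctamins include the calcium-activated chloride channel Ano1, whose opening depolarises vascular smooth muscle. Its values were 6.10, 5.43 and 5.61 in sham, 5.80, 6.54 and 6.48 in NX-vehicle, 7.19, 7.80 and 7.94 in NX-paricalcitol, 7.12, 7.29 and 6.87 in NX-alfacalcidol and 7.19, 6.55 and 6.38 in NX-VS-105. All compound arrays were above all sham arrays. The NX-paricalcitol and NX-alfacalcidol arrays were also above all NX-vehicle arrays, while NX-VS-105 overlapped vehicle. Against sham, Ano1 rose by 1.93 ± 0.28 in NX-paricalcitol, or 3.81-fold (limma adjusted p = 0.0148), by 1.38 ± 0.28 in NX-alfacalcidol, or 2.60-fold (adjusted p = 0.0338), and by 0.99 ± 0.28 in NX-VS-105, or 1.99-fold (adjusted p = 0.0340). The moderated F test also called it (adjusted p = 0.0198), as it did Kcng3 (0.0217), Kcnk5 (0.0335) and Clcn7 (0.0472).

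Against vehicle the Ano1 differences did not pass. They were 1.37 ± 0.28 for paricalcitol (adjusted p = 0.232), 0.81 for alfacalcidol (0.221) and 0.43 for VS-105 (0.389), and NX-vehicle differed from sham by 0.56 (0.567). The paricalcitol call against sham was lost without sham array 2 (0.0561) or NX-paricalcitol array 2 (0.0872). The alfacalcidol call was lost without sham array 2 (0.142) or 3 (0.0639) or NX-alfacalcidol array 1 (0.135) or 3 (0.0850). The VS-105 call was lost without sham array 2 (0.103) or 3 (0.0699), or without NX-VS-105 array 1 (0.107), 2 (0.0537) or 3 (0.0559). Without moderation of the variance, or with the replicate number as a block, the alfacalcidol and VS-105 calls were also lost. The VS-105 call was lost as well when only the sham and NX-VS-105 arrays were fitted. The paricalcitol call held in these settings. Ano6, a phospholipid scramblase and channel, ranged from 5.38 to 6.21 and Ano10 from 6.76 to 7.25, with no call and no difference from sham larger than 0.33. The rise was thus measured in Ano1 of the 3 anoctamins, and the differences between genes were not tested.

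The CLC family, mostly exchangers of endosomes and lysosomes, moved in both directions. Clcn7, the lysosomal chloride-proton exchanger, was 3.30, 3.02 and 2.84 in sham, 2.77, 3.34 and 2.80 in NX-vehicle, 3.58, 3.96 and 3.80 in NX-paricalcitol, 3.70, 3.79 and 3.75 in NX-alfacalcidol and 3.96, 3.52 and 3.27 in NX-VS-105. NX-paricalcitol and NX-alfacalcidol lay above all sham and vehicle arrays. It rose by 0.73 ± 0.20 in NX-paricalcitol against sham, or 1.65-fold (limma adjusted p = 0.0495). Against sham it differed by 0.69 in NX-alfacalcidol (0.0768) and 0.53 in NX-VS-105 (0.0882). Against vehicle the 3 compounds gave 0.81 (adjusted p = 0.259), 0.77 (0.137) and 0.61 (0.103). The call was lost without any of 10 of the 15 arrays, with an adjusted p of up to 0.198, and after subtracting array medians (0.0656).

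Clcn6, a late endosomal exchanger, fell in NX-VS-105. It was 3.79, 3.86 and 3.55 in sham, 3.63, 3.21 and 3.22 in NX-vehicle, 3.24, 3.21 and 3.35 in NX-paricalcitol, 3.23, 3.60 and 3.40 in NX-alfacalcidol and 2.97, 3.14 and 2.84 in NX-VS-105. Every NX-VS-105 array was below every other array of the study. Clcn6 fell by 0.75 ± 0.15 against sham, or 1.69-fold (limma adjusted p = 0.0107), and the call held with each of the 15 arrays left out (adjusted p from 0.00864 to 0.0487). The call was lost when only the sham and NX-VS-105 arrays were fitted (limma adjusted p = 0.0549). Against vehicle the difference was -0.37 (adjusted p = 0.169).

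Clcn3, an endosomal exchanger also studied as a volume-sensitive channel of smooth muscle, was 3.45, 2.77 and 2.65 in sham and 1.84, 2.34 and 1.79 in NX-VS-105. The groups did not overlap, and Clcn3 fell by 0.97 ± 0.29, or 1.95-fold (limma adjusted p = 0.0434). The call was lost without any of 7 of the 15 arrays, with an adjusted p of up to 0.152. Clcn5, an endosomal exchanger known from the kidney, had no call.

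The chloride intracellular channel proteins, which are found both free and in membranes, had no call among 4 genes. Clic1 was 4.81, 4.32 and 5.01 in sham and 5.30, 6.13 and 5.89 in NX-paricalcitol (difference 1.06 ± 0.31, adjusted p = 0.0562), and all compound arrays lay above all sham arrays. Clic4, which takes part in endothelial tube formation, was higher on all NX-paricalcitol and NX-alfacalcidol arrays than on all NX-vehicle arrays, by 0.64 (adjusted p = 0.264) and 0.62 (0.224). In NX-VS-105 it differed from sham by -0.59 (adjusted p = 0.0788), again with no overlap. Clic2 ranged from 1.65 to 2.78. Clic5 ranged from 2.75 to 5.31 and was lowest on the 5 arrays lowest in adipocyte and in Schwann cell genes. In all, 6 channels shared those 5 lowest arrays (9.52%, among them Clic5, Itpr2, Kcnk3, Kcnv2 and Scn7a), beside 2.36% of all features.

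Partners of these channels were read from a list of 40 genes for pumps, store-operated channels, kinases and scaffolds, of which 28 were in the table. None passed in NX-vehicle against sham, in any compound against vehicle or in NX-alfacalcidol against sham, and the F test passed 0 of 28 (limma). The smallest p values in these comparisons were those of Atp2b4 (-0.46, adjusted p = 0.459) and Orai1 (0.72, 0.475) in NX-vehicle against sham, and of Trdn (1.29, 0.0735) and Pln (1.38, 0.0842) in NX-alfacalcidol against sham. Against vehicle they were those of Fkbp1a (0.39, adjusted p = 0.315) and Fkbp1b (0.31, 0.323) for paricalcitol, Trdn (1.09, 0.213) and Fkbp1b (0.37, 0.233) for alfacalcidol and Fkbp1b (0.28, 0.238) and Atp2a1 (0.88, 0.240) for VS-105. Atp2a1 was 5.39 on NX-VS-105 array 1, the array high in skeletal muscle genes, and between 2.73 and 3.91 on the other 14. Trdn, Fkbp1a and Fkbp1b code for proteins of the calcium release complex, Atp2a1 and Pln for a calcium pump of the sarcoplasmic reticulum and a pump regulator, and Orai1 for the store-operated calcium channel.

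Atp2b4, a plasma membrane calcium pump that also restrains nitric oxide synthase, fell against sham in NX-paricalcitol by 0.60 ± 0.15 (limma adjusted p = 0.0381) and in NX-VS-105 by 0.57 ± 0.15 (adjusted p = 0.0258). Prkg1, the cGMP-dependent kinase that phosphorylates BK channels, fell in NX-VS-105 by 0.78 ± 0.23 (adjusted p = 0.0363). Ostm1, the partner that Clcn7 needs in lysosomes, rose there by 0.59 ± 0.18 (adjusted p = 0.0439). In NX-paricalcitol Ostm1 differed from sham by 0.63 (adjusted p = 0.0542) and in NX-alfacalcidol by 0.56 (0.0903), beside the Clcn7 values above. These were 1 of 28 partners for paricalcitol and 3 of 28 for VS-105, beside 6.98% and 15.9% of all features.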

How the data were processed

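Aortic RNA was hybridised, labelled with Cy3, on 15 one-colour Agilent arrays, 3 for each of 5 groups, and samples were grouped by their titles. The value table is the authors' deposited log2 signal per gene symbol, and a test against the deposited signed fold changes of 89 genes gave the same log2 differences to within 8.7e-06. The authors' deposited list of p-values and fold score columns names 0 of the 63 channel genes and was used for that check only. Partek 6.0 is named in the submitters' processing notes; no source used here gives the background correction, the scaling, the choice of features, slides or scan times. All value columns matched a sample, and 0 were left unmapped. No arrays of a group were near-identical.

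Group means were fitted over 15 arrays with limma 3.58.1 (lmFit and eBayes, R 4.3.3), leaving 10 residual degrees of freedom, with 2-sided contrasts and Benjamini-Hochberg adjustment over all 15739 features in each comparison. All 7 comparisons and the moderated F test used a threshold of 0.05. The number of arrays limits the precision. Genes named are those that passed, the 4 with the smallest p where fewer did, and a list of vascular channels. The members, gene lists and tests were chosen with earlier results of these data known.

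Same-numbered arrays of NX-vehicle and NX-paricalcitol deviated together (correlations of 0.622, 0.516 and 0.264 over features), so the numbers may pair them; the labels say that pools were drawn at random. In each other comparison at least 1 pair was below 0.1. Alternatives covered a filter, scaling, a floor, variance models, array weights, the groups fitted, a replicate block, arrays high in other tissues' genes, and each array left out. A few channel genes, some of them among the counts of calls, are not reported here. Promoter windows were taken from RefSeq (GRCr8).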

Additional observations from a re-analysis of the deposited data

How the results depend on the processing

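Counts of channel genes that passed depended on the setting. In this paragraph and the last, a count such as 6 of 3107 sets the channels that passed against the number of all 15739 features that passed. NX-vehicle against sham stayed at 0 under each alternative, paricalcitol against vehicle under all but array weights (6 of 3107), and alfacalcidol against vehicle under all but array weights (13 of 5996) and a fit of only the 2 groups (1 of 58). VS-105 against vehicle went from 2 of 716 to 8 of 3113 with array weights. It went to 1 with features of mean 0 or more (of 671), array medians subtracted (of 696) or quantile normalization (of 592). A common floor (of 690) and no variance moderation (of 560) also gave 1. Without the arrays high in genes of other tissues, each comparison with NX-vehicle holds 1 array of that group, so its counts cannot be judged. Without moderation, paricalcitol against sham had 1 of 529, alfacalcidol 0 of 101, VS-105 5 of 2059 and the F test 1 of 263. Array weights gave 12 of 2804 for paricalcitol and 11 of 3209 for alfacalcidol against sham and 23 of 6482 for the F test. Only the 2 groups gave 2 of 105 for paricalcitol and 4 of 502 for VS-105 against sham. The F test had 7 with features of mean 0 or more (of 1060) or with an intensity trend and robust prior (of 1295). Without NX-VS-105 array 1, VS-105 against sham had 5 of 1408. The F test without that array and NX-vehicle arrays 2 and 3 also holds 1 NX-vehicle array, and its count is not given.

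With 1 array left out, counts stayed at 0 (0 to 0) for NX-vehicle against sham and for paricalcitol and alfacalcidol against vehicle. VS-105 against vehicle ranged from 0 (without NX-vehicle array 3 or NX-VS-105 array 3) to 4 (without NX-vehicle array 1). Paricalcitol against sham ranged from 0 (without sham array 2 or NX-paricalcitol array 2) to 10 (without NX-vehicle array 1), alfacalcidol from 0 (without sham array 2 or 3 or NX-alfacalcidol array 1 or 3) to 5 (without NX-alfacalcidol array 2), VS-105 from 2 (without NX-VS-105 array 3) to 13 (without NX-alfacalcidol array 2), and the F test from 1 (without NX-vehicle array 3 or NX-VS-105 array 3) to 5. Over all features these counts ranged from 34 to 1275, 0 to 1482, 31 to 861, 583 to 2778 and 151 to 1275, in that order. Counts moved by over 1.5 times also for VS-105 against sham without sham array 1 (5), 2 (4) or 3 (7) or NX-VS-105 array 1 (5). For paricalcitol against sham they were 3 without sham array 1 or 3, NX-vehicle array 3, NX-alfacalcidol array 1 or 3 or NX-VS-105 array 2, 2 without NX-paricalcitol array 3, 8 without its array 1 and 9 without NX-vehicle array 2. VS-105 against vehicle had 1 without sham array 3, NX-vehicle array 2, NX-paricalcitol array 1 or 2, NX-alfacalcidol array 1 or NX-VS-105 array 1 or 2. The F test had 2 without sham array 1 or 2, NX-paricalcitol array 2 or 3, NX-alfacalcidol array 1 or 3 or NX-VS-105 array 1 or 2. Counts over all features in these settings lie within the ranges above and are not set beside each count. The channel counts are therefore no result about channels as a group. Over 490 alternative values of the 20 gene calls, 341 kept direction and call, 149 kept direction only and 0 turned. The causes were not tested.

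With the replicate number as a block over all 15 arrays, paricalcitol against sham had 1 of 294, alfacalcidol 1 of 104 and the F test 2 of 212. VS-105 against sham had 9, and without the count over all features this cannot be set against the background. Only the paricalcitol and vehicle arrays showed signs of pairing, and their own comparison stayed at 0 in both block fits. Of the 5 channels below the highest array minimum on some array, Kcnk2, Kcnh5, Cacna1s and Scn7a are reported here.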

Other observations

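Kcng3 was compared with every other feature over the 15 arrays after its values had been seen, by Pearson's correlation, to name features with a like pattern. Among those with a gene-like name the closest were Lhx6, Mixl1 and Olr1254. Kcng3 averaged 2.02, 1.91, -0.06, -0.26 and -1.29 in sham, NX-vehicle, NX-paricalcitol, NX-alfacalcidol and NX-VS-105. In the same order Lhx6, a homeobox gene, averaged 3.15, 3.13, 1.24, 0.85 and 0.13. Mixl1, also a homeobox gene, averaged 0.15, 0.05, -1.55, -1.88 and -2.41, and Olr1254, an olfactory receptor gene, averaged -0.72, -0.42, -2.75, -3.03 and -4.06. These are values only, and no test was made of genes picked for their likeness.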
